A study of Mus musculus with 40 samples.

Results

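The SMC3 ChIP-seq peaks of small pre-B cells exposed to oligomycin (group ATPneg) were compared with those of untreated cells (group WT). The 4 libraries were taken from the labels by target and condition, 2 ATPneg and 2 WT, out of 40 samples in the series. All 4 came from wild type mice: small pre-B cells were sorted by flow from bone marrow, and the ATPneg cells were then held for 2 h in 126 nM oligomycin A. No vehicle-treated cells kept in culture for the same time are labelled, so oligomycin and time in culture cannot be told apart in this comparison. The strain, sex and age of the mice are not given in the labels, nor is it stated whether the replicates came from separate animals. The other lists used here are CTCF, RAD21, NIPBL, WAPL, H3K27ac and H3K4me1 of WT cells, RAD21, NIPBL and WAPL of ATPneg cells, and SMC3 and CTCF of Brwd1 knockout (KO) cells, with 2 libraries each.

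SMC3 is one of the 2 long coiled-coil ATPases of cohesin, the ring-shaped complex that holds sister chromatids together and extrudes DNA loops in interphase. RAD21 is the subunit that closes the ring. NIPBL loads cohesin and stimulates its ATPase, and WAPL releases it from chromatin. CTCF is a zinc finger protein that halts cohesin at its motif, so cohesin is generally mapped at CTCF sites. In small pre-B cells, the stage at which the Ig kappa (Igk) light chain locus is rearranged, cohesin loops bring distant V segments towards the J segments. Oligomycin blocks the mitochondrial ATP synthase.

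The WT lists of SMC3 differed from that general picture of cohesin. Of the 41044 and 64033 peaks of the WT libraries, 1.61% and 1.35% overlapped a CTCF WT consensus peak, and the WT libraries of RAD21 gave 1.49% and 1.42%. Consensus here means the peaks of replicate 1 that share at least 1 bp with any peak of replicate 2. By contrast, 81.5% and 82.4% of the SMC3 peaks of KO cells lay at the same CTCF consensus. The WT replicates of SMC3 also differed from each other, since 81.8% of replicate 1 peaks were found in replicate 2, but 44.6% of replicate 2 peaks were found in replicate 1. Among the other lists, CTCF WT 2 held 67796 peaks against 21429 in CTCF WT 1. Taken alone, CTCF WT 2 overlapped 28.1% and 31.1% of the peaks of SMC3 WT 1 and 2. The peak names inside the H3K4me1 WT lists name H3K27ac of KO cells, and those inside the NIPBL WT 1 list name NIPBL KO 2. Promoters of 10 pre-B cell marker genes such as Cd79b and Ebf1 carried the H3K4me1-labelled WT mark at 10 and the H3K27ac-labelled WT mark at 6, while 13 annotated myeloid genes had them at 1 and 4 and 14 T cell genes at 4 and 9. Results at both histone lists are therefore given side by side. Read density in both SMC3 WT libraries lay under that of the WT input at the sites gained after oligomycin (2.71 and 2.34 against 6.83, given with the other read densities). These densities are scaled to each library's reads in the SMC3 regions, so the order can depend on that scaling. Sites called gained also have no WT peak by definition. Whether the WT libraries, or their roles against the input in peak calling, are as labelled was not tested, and every count of gained and lost peaks takes the WT lists as labelled. What part these features of the WT lists have in the comparison was not tested.

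Promoters with gained SMC3 peaks are shown first, because 51.9% of the gained peaks were at CTCF sites and the CTCF core motif can be read in the sequence. A gained peak is an ATPneg consensus peak that overlapped no peak of either WT list. The sequences are the 250 bases before the transcription start in RefSeq (build GRCm38.p6, plus strand for all 4 genes), while the peaks are placed on build mm9, so motif and peak were matched through the gene and not by coordinate. Capitals mark matches on either strand to the core of the CTCF motif, read as CCA, AG and GGC with 2 free bases (NN) between each. Cebpb (a myeloid transcription factor, chr2:167688665-167688914), Rplp0 (a ribosomal stalk protein, chr5:115559217-115559466) and Uqcrc1 (a subunit of respiratory complex III, chr9:108936398-108936647) are genes with such a peak whose window held a match, and Smc3 itself (chr19:53600146-53600395) is shown as a CTCF-bound promoter with none in this window.
Cebpb: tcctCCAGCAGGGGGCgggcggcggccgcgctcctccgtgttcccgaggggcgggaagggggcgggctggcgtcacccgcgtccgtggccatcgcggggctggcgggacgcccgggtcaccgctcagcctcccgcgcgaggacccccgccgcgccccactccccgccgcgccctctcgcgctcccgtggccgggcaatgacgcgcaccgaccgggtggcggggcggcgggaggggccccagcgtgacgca
Rplp0: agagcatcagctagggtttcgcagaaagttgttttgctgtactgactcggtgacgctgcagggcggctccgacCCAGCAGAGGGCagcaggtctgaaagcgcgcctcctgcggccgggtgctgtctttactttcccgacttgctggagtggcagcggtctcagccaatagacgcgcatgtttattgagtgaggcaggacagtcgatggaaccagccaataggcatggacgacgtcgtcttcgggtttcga
Uqcrc1: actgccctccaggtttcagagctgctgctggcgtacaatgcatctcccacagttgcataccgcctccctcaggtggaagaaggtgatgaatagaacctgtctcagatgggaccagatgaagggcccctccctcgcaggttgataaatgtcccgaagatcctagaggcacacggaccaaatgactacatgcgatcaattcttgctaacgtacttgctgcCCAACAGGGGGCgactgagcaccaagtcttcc
Smc3: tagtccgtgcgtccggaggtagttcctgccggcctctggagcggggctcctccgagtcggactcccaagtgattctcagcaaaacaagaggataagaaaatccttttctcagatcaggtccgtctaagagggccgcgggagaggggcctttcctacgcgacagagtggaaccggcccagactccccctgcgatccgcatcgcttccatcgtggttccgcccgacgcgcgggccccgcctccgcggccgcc

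Each of these 4 promoters held a gained peak at a CTCF WT consensus peak. The Cebpb peak, at -145 bp from the start (chr2:167513548-167514267), scored 40.5 and 21.4 in the ATPneg libraries. The Rplp0 peak (chr5:116009140-116010015) scored 23.0 and 13.9, the Uqcrc1 peak (chr9:108838048-108838880) 14.1 and 10.6, and the Smc3 peak (chr19:53674078-53675057) 27.5 and 23.1 in the ATPneg libraries. As gained peaks, these 4 overlap no peak of either WT list by definition. Over all genes with a gained peak at CTCF within 500 bp of the start, the motif was found in 109 of 813 matched promoters (13.4%, 95% interval 11.1 to 15.9%) in the full 300-base windows. Where the gained peak within 500 bp was not at CTCF, 57 of 1684 promoters held it (3.38%). The share was 2.03% of 12662 promoters without a gained peak and 2.82% of all 27025 gene symbols of the table. The match is a description of the letters, and of the 1114 and 2230 genes of the first 2 groups the others had no entry under that symbol.

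After oligomycin the SMC3 lists were of even length, covered less of the genome and lay more often at CTCF sites. The ATPneg libraries held 40667 and 39437 peaks, against 41044 and 64033 in the WT libraries. The ATPneg peaks covered 19.3 and 18.2 Mb, less than the 39.7 and 55.8 Mb covered in the WT libraries, and the groups did not overlap in covered length. Peaks of at least 1 kb made up 7.29% and 6.38% of the ATPneg lists, against 30.2% and 21.8% of the WT lists. The median width was 394 and 390 bp in ATPneg libraries, and the WT values of 490 and 346 bp lay on either side of these.

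The share of peaks at CTCF separated the groups widely. It was 38.2% and 39.0% in ATPneg libraries and 1.61% and 1.35% in WT libraries, a mean of 38.6 ± 0.584% against 1.48 ± 0.178% (SD, n = 2 each). The difference of 37.1 percentage points was far larger than either SD, but the exact two-sided permutation test over 2 against 2 libraries cannot give a p below 0.333, which is the value it gave. The number of peaks also gave p = 0.333 in the exact permutation test, for a mean difference of -12486.5 peaks that was -992 without WT 2 and turned to 2682 at a stricter score (at least 2 times the lowest of each list). The difference in median width gave p = 1 in the exact permutation test, and the difference was -26 bp with all libraries and 46 bp without WT 1. Among the 1000 highest-scoring peaks of each library, 99.2% and 99.1% were at CTCF in ATPneg libraries, against 17.2% and 13.1% in WT libraries. All these shares use the CTCF WT consensus. The longer list of CTCF WT 2 alone gave a smaller gap. It overlapped 56.2% and 59.0% of the peaks of ATPneg 1 and 2, and 28.1% and 31.1% of those of WT 1 and 2.

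**Figure D1:**
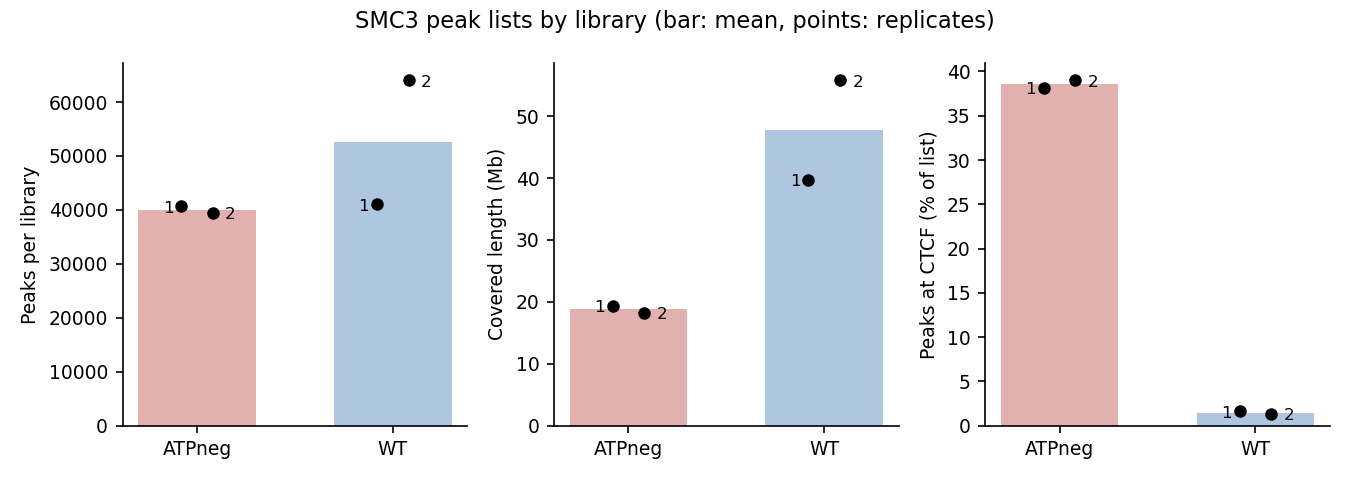
Number of SMC3 peaks, covered length in Mb and share of peaks at the CTCF WT consensus in percent, for the 2 ATPneg and the 2 WT libraries; bars are means and points the replicates, numbered. The ATPneg points nearly coincide in all 3 panels, and in the CTCF panel they sit at 38.2% and 39.0%, against 1.61% and 1.35% in WT.

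Few SMC3 sites were shared between the conditions. Of 31482 ATPneg consensus peaks, 27393 (87%, 95% binomial interval 86.6 to 87.4%) were gained. Of 33564 WT consensus peaks, 30376 (90.5%, 90.2 to 90.8%) overlapped no peak of either ATPneg list and are called lost, 1041 overlapped a peak of 1 ATPneg list, and 2147 (6.4%, 6.14 to 6.66%) overlapped peaks of both and are called kept. Seen from the ATPneg side, 2151 peaks (6.83%) lay in both WT lists and 1938 in 1. The intervals cover counting error only and treat peaks as independent. Between replicates the overlap was much higher: 77.4% of ATPneg 1 peaks were in ATPneg 2 and 79.8% of ATPneg 2 peaks in ATPneg 1. Across conditions, 7.19% and 12.4% of ATPneg 1 peaks and 7.78% and 14.0% of ATPneg 2 peaks were in WT 1 and WT 2. "Gained" and "lost" refer to calls in lists, since a peak just under a list's threshold counts as absent.

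The classes differed in width. Gained peaks had a median width of 508 bp (quartiles 331 and 740 bp), lost peaks 784 bp (374 and 1589 bp) and kept peaks 123 bp (115 and 143 bp). Peaks of at least 1 kb were 9.99% of gained and 40.7% of lost peaks but 0.652% of kept peaks, while 89.2% of kept peaks were under 200 bp. When the consensus peaks were split into 5 equal classes by width, the narrowest class held the shared sites: 30.1% of the narrowest ATPneg peaks lay in both WT lists and 28.9% of the narrowest WT peaks lay in both ATPneg lists. In the widest class these shares were 0.777% of ATPneg peaks and 0.0745% of WT peaks.

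**Figure D2:**
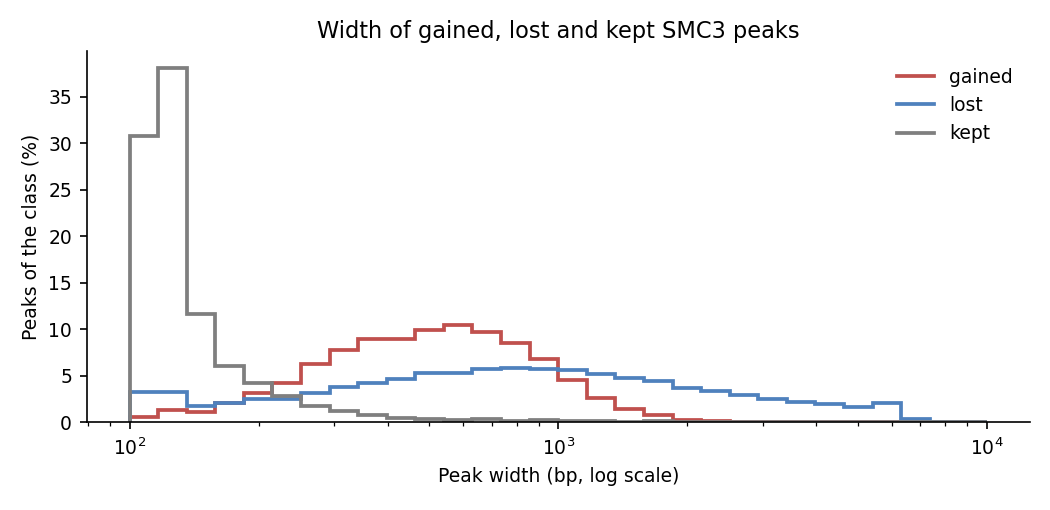
Distribution of peak width (bp, log scale) as percent of each class, for gained, lost and kept SMC3 peaks. Kept peaks pile up near their median of 123 bp, gained peaks centre on 508 bp, and lost peaks spread to several kb around 784 bp.

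CTCF occupancy marked the gained peaks. The CTCF WT consensus overlapped 14206 gained peaks (51.9%, 51.3 to 52.5%), 81 lost peaks (0.267%) and 429 kept peaks (19.98%). The longer list of CTCF WT 2 alone gave other shares, overlapping 58.3% of gained, 23.6% of lost and 99.6% of kept peaks, while CTCF WT 1 alone overlapped 59.4%, 0.30% and 19.98%. The wider CTCF KO consensus of 24471 peaks overlapped 68.1% of gained, 0.168% of lost and 4.75% of kept peaks. Viewed from CTCF, 15242 of the 16606 WT consensus sites (91.8%, 91.4 to 92.2%) held an ATPneg consensus peak of SMC3, against 555 (3.34%, 3.07 to 3.63%) with a WT consensus peak. In single libraries, 94.5% and 93.6% of the CTCF sites had a peak in ATPneg 1 and 2, against 3.97% and 5.23% in WT 1 and 2. The ATPneg lists alone held 14812 of the CTCF sites, both conditions held 430, the WT lists alone held 125, and 1239 held neither. Since CTCF itself was mapped only without oligomycin, its occupancy after treatment is not known from these lists.

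The share at CTCF climbed with the peak score in ATPneg cells. From the lowest to the highest of 5 classes of ATPneg consensus peaks by score, it was 11.5%, 21.5%, 38.8%, 72.2% and 95.2%. The same split of WT consensus peaks gave 0.809%, 0.639%, 0.552%, 1.105% and 5.51%. Score and width went together in ATPneg cells, with median widths of 310 bp in the lowest and 817.5 bp in the highest class. Scores come from separate lists whose depth is unknown for ATPneg, so they rank peaks only within a condition.

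**Figure D3:**
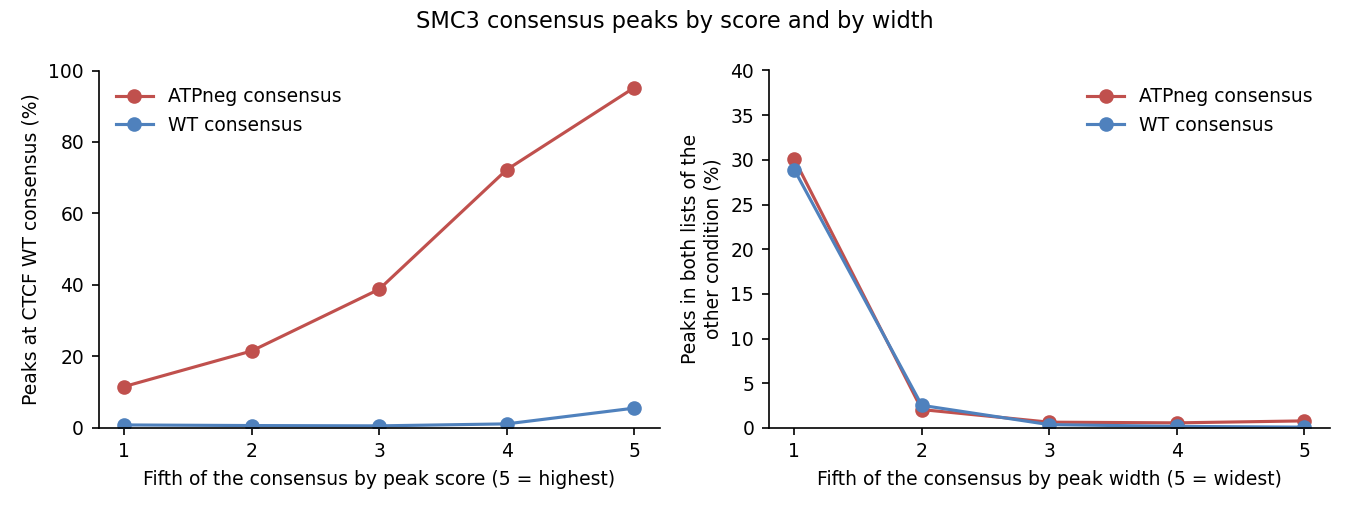
Left, share of SMC3 consensus peaks at the CTCF WT consensus (percent) by class of peak score (5 classes); right, share found in both lists of the other condition (percent) by class of peak width; lines are ATPneg and WT consensus peaks. The ATPneg line at left climbs to 95.2% while the WT line reaches 5.51%, and at right both lines drop from about 30.1% and 28.9% in the narrowest class.

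RAD21, the ring-closing partner of SMC3, was present at gained peaks after oligomycin but its lists varied between replicates. RAD21 ATPneg 1 (16375 peaks) overlapped 24.4% of gained peaks and RAD21 ATPneg 2 (35784 peaks) overlapped 85.2%, while the RAD21 WT lists overlapped 0.697% and 0.664%. At lost peaks the order was the opposite, with 2.55% and 1.62% in the RAD21 ATPneg lists and 85.4% and 90.3% in the RAD21 WT lists. The consensus of RAD21 WT overlapped 33 gained peaks (0.12%) and 24888 lost peaks (81.9%). The gap between gained and lost, -81.8 percentage points, shrank to -46.5 without SMC3 WT 1. SMC3 in KO cells, which were not given oligomycin, shared 30.1% of gained peaks and 0.165% of lost peaks by consensus.

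The loader NIPBL and the release factor WAPL divided the classes too. WAPL WT consensus peaks overlapped 2.38% of gained, 82.6% of lost and 96.9% of kept peaks, and the difference of -80.2 points between gained and lost became -52.6 without SMC3 WT 1. WAPL ATPneg lists were short, at 3280 and 4623 peaks, and their consensus overlapped 0.686% of gained, 0.0461% of lost and 51.5% of kept peaks. NIPBL WT consensus peaks overlapped 1.74% of gained, 8.73% of lost and 89.0% of kept peaks. The difference between gained and lost, -6.99 points, was -2.35 without SMC3 WT 2. The single lists differed at lost peaks, with an overlap of 10.98% for NIPBL WT 1 and 42.05% for NIPBL WT 2. At gained peaks they gave 1.87% and 2.89%. NIPBL WT 1 is the list whose peak names name NIPBL KO 2. NIPBL ATPneg consensus peaks overlapped 1.95% of gained, 0.80% of lost and 88.6% of kept peaks. Counting the WT lists of CTCF, H3K27ac, NIPBL, WAPL and RAD21, 42.9% of gained peaks lay in none of the 5, 68.6% of lost peaks lay in 2, and 89.8% of kept peaks lay in at least 3. Kept sites were also dense in the WT input, as given with the other read densities.

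**Figure D4:**
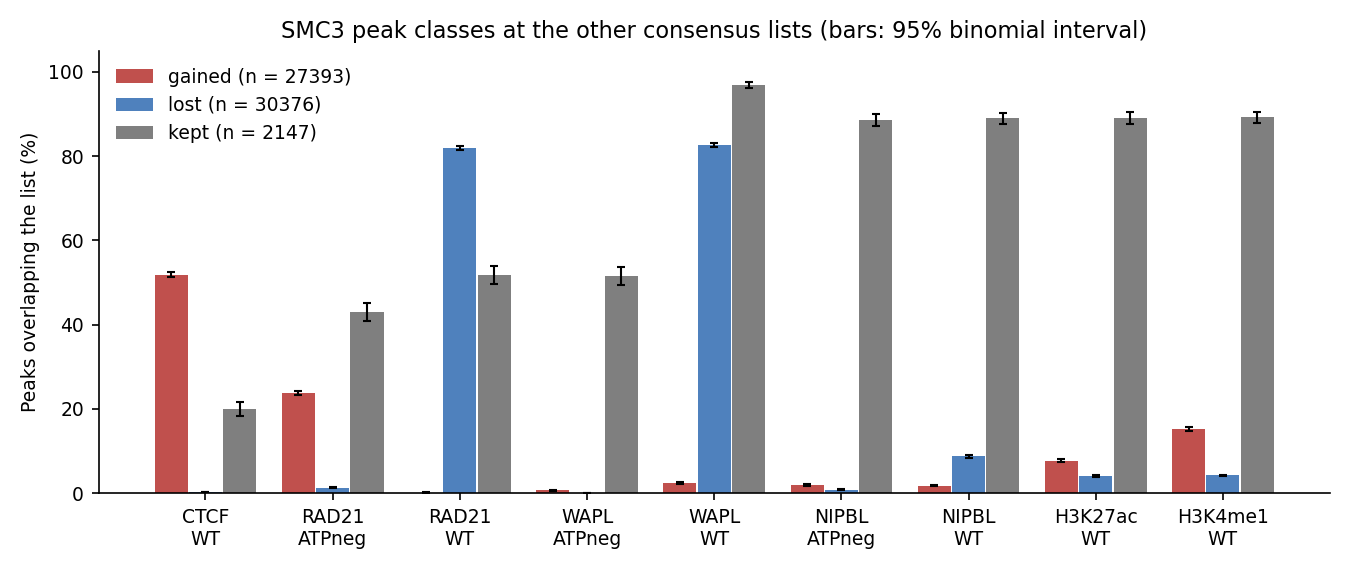
Percent of gained, lost and kept SMC3 peaks that overlap the consensus lists named on the axis (WT and ATPneg cells); error bars are 95% binomial intervals, which cover counting error only. Gained peaks reach 51.9% at CTCF WT, lost peaks 81.9% at RAD21 WT and 82.6% at WAPL WT, and kept peaks 96.9% at WAPL WT, 89.0% at NIPBL WT and 89.1% at H3K27ac WT.

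Gained peaks outside the CTCF WT consensus fell into 2 sets. Another 7012 gained peaks (25.6%) overlapped a peak of some other CTCF list, and 6175 (22.5%) overlapped none of the 4 CTCF lists. The median score in ATPneg 1 was 30.98 at the CTCF consensus, 12.2 at other CTCF lists and 8.68 where no CTCF list had a peak. RAD21 ATPneg 2 had a peak at 98.0%, 81.2% and 60.2% of these 3 sets, and RAD21 ATPneg 1 at 41.2%, 10.5% and 1.60%. Where no CTCF list had a peak, 66.2% of the 2551 gained peaks with an annotated region were at promoters, against 13.2% at the CTCF consensus. In the set without a CTCF peak, 58.7% had no annotated region, so its promoter share describes the remainder.

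H3K27ac, a mark of active promoters and enhancers, set kept peaks apart but not gained from lost. H3K27ac WT consensus peaks overlapped 7.74% of gained, 4.18% of lost and 89.1% of kept peaks. Kept sites were also dense in the WT input, with a median read density of 129.8 against 86.3 and 93.6 in SMC3 WT 1 and 2. Whether the overlap of kept peaks with the histone lists reflects the marks was not tested. The difference of 3.56 points between gained and lost turned to -6.28 without SMC3 WT 1 and to -1.24 when the replicates were merged instead of intersected. The H3K4me1-labelled WT consensus overlapped 15.2% of gained, 4.20% of lost and 89.3% of kept peaks.

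Promoters carried gained peaks and hardly any lost ones. Of the gained peaks with an annotated region, 20.005% were at a promoter (region within 2 kb of a start), 33.9% in a gene body, 42.4% intergenic and 3.64% had no gene within 200 kb. Lost peaks were at promoters in 0.609% and without a gene within 200 kb in 39.0%. Kept peaks were at promoters in 3.73% and without a gene within 200 kb in 34.6%. The median distance to the nearest start was 14875 bp for gained, 54532 bp for lost and 38895 bp for kept peaks. No region was listed for 3624 gained peaks (13.2%), because regions were built from the lists of untreated cells. Of the gained promoter peaks, 39.5% were at CTCF, 10.5% at H3K27ac WT and 47.2% at the H3K4me1-labelled WT list. Of 7984 genes whose promoter held that H3K4me1-labelled mark, 36.8% (35.8 to 37.9%) had a gained promoter peak, against 13.4% (12.8 to 13.9%) of the 15094 genes without it. With H3K27ac WT the shares were close, at 22.2% and 21.2%. Regions of both histone lists are among those that give a gained peak its gene. A marked promoter can thus itself supply the promoter call, while a gained peak without a region counts for no gene. How much of the shares at the marks comes from this was not tested.

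Lost peaks were clustered and gene-poor, and gained peaks were dispersed. The median gap to the next peak of the class was 27995 bp for gained, 2542 bp for lost and 776139 bp for kept peaks, and 44.2% of lost gaps were under 1 kb against 4.40% of gained gaps. Lost peaks are intervals of WT 1, and several can lie in 1 wider WT 2 peak. Near Rag2, lost peaks of 2736, 1573 and 724 bp shared a WT 2 peak of 6126 bp. Short gaps and stretches of lost peaks thus include pieces of broad peaks. Joining peaks within 10 kb gave 894 stretches with 5 or more lost peaks, which held 17.98% of lost peaks, and 180 such stretches of gained peaks, which held 3.71%. The lost stretch with the most peaks, 43, lay on the unplaced contig NT_166477, and another of 38 lay at chr17:3006429-3038613, near the start of the assembled sequence. Chromosome X held 2.10% of gained and 8.99% of lost peaks, and chromosome 11, which is gene-dense, 7.91% of gained and 2.89% of lost peaks. Unplaced contigs held 0.277% of gained, 3.55% of lost and 6.38% of kept peaks.

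The count tables used here cover WT and KO cells without oligomycin, and density in WT was low at the gained sites. The SMC3 regions, made from WT and KO cells, covered 12567 of the gained peaks and every lost and kept peak, so the other gained peaks are not counted here. Gained peaks overlap no WT peak by definition, so regions at them come mainly from KO peaks. Lost peaks are WT peaks. The order of KO and WT density at gained and lost sites was thus largely set by how the sites were chosen. In the 12736 regions at gained peaks, the median was 36.3 and 36.4 CPM per kb (counts scaled to the library's total in these regions and to length) in SMC3 KO 1 and 2, against 2.71 and 2.34 in SMC3 WT 1 and 2 and 6.83 in the WT input. Both WT libraries had a lower density there than their input, an order that can depend on the scaling to reads in these regions. In the 23476 regions at lost peaks the medians were 3.32 and 3.38 in KO libraries, 5.52 and 7.03 in WT libraries and 2.14 in the WT input. At kept peaks all libraries were dense: 139.9 and 129.5 in KO, 86.3 and 93.6 in WT and 129.8 in the WT input, so kept sites were dense in DNA that had not been immunoprecipitated. Total reads in these regions were 17667209 and 15416715 in WT libraries, 4010016 and 4242112 in KO libraries and 5406159 in the WT input. The depth of the ATPneg libraries is unknown.

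**Figure D5:**
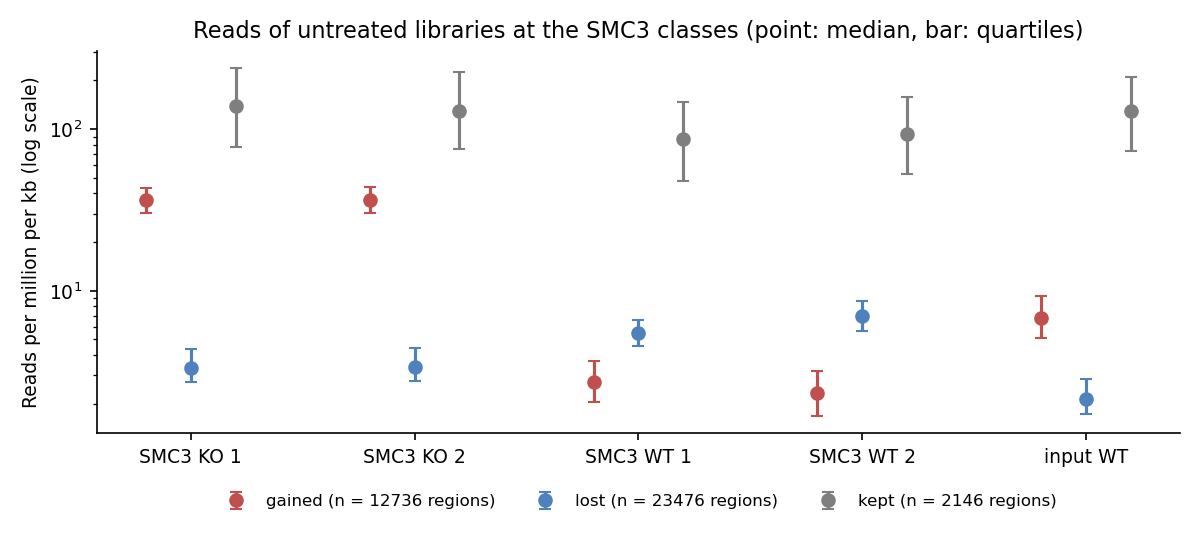
Median and quartiles of CPM per kb (log scale) in SMC3 regions at gained, lost and kept peaks, in the SMC3 libraries of KO and WT cells and the WT input. At gained peaks the KO libraries stand at 36.3 and 36.4 and the WT libraries, at 2.71 and 2.34, lie under the WT input at 6.83. Regions at gained peaks come mainly from KO peaks, and each library is scaled to its own reads in the SMC3 regions. Kept peaks are dense in all 5.

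Across 23078 annotated genes, 12292 (53.3%) were the nearest gene of a gained peak and 4957 (21.5%) had one at the promoter. Lost peaks were nearest to 5817 genes (25.2%) and at the promoters of 162 (0.702%), and kept peaks were nearest to 1282 (5.56%) and at the promoters of 87 (0.377%). Nearest genes are positions and say nothing of expression. Cohesin genes were among them: of 16 genes for cohesin, CTCF and their regulators, 8 had a gained promoter peak, namely Smc3, Rad21, Stag2, the loader genes Nipbl and Mau2, Pds5a and Pds5b, whose products bind the ring, and Esco1, an SMC3 acetyltransferase. No gene of that list had a lost promoter peak, and the WAPL gene (Wapal) had a lost peak of 6513 bp in its gene body with scores of 15.7 and 26.6 in WT libraries.

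Of 20 genes of oxidative phosphorylation, which includes the ATP synthase that oligomycin blocks, 15 were nearest to a gained peak and 10 had one at the promoter, among them the ATP synthase genes Atp5c1, Atp5d and Atp5k; 3 were nearest to a lost peak. Of 15 glycolysis genes the counts were 11 near and 5 at the promoter, and of 20 genes of AMPK, mTOR and energy stress 15 and 8. Housekeeping genes gave 14 of 16 near and 8 at the promoter. In the B lineage, 18 of 24 transcription factor genes were nearest to a gained peak and 12 had one at the promoter, against 10 nearest to a lost peak and none with one at the promoter. Of 20 genes of the pre-B receptor and Ig recombination, 14 were near and 4 at the promoter. Genes of other blood lineages were near gained peaks as well: 10 of 14 T cell, 10 of 13 myeloid and 7 of 12 erythroid genes, with 1, 3 and 3 at promoters. The share nearest to a gained peak was above the 53.3% of all genes in each list, for genes of other lineages as for B lineage genes. The promoter share ran from 1 of 14 T cell genes to 50%, against 21.5% of all genes. That highest share was held alike by genes of oxidative phosphorylation, B lineage transcription factors, housekeeping genes and the 16 genes for cohesin, CTCF and their regulators. Of all genes, 25.2% were nearest to a lost peak.

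The 10 highest-ranked gained peaks with distinct genes scored at least 143.2 in ATPneg 1 and 144.9 in ATPneg 2. All 10 lay at CTCF, in both RAD21 ATPneg lists and in the SMC3 KO consensus. They were nearest to Trappc9, Tnfrsf23, Ssh3, Timm8a2, B4galnt4, Neat1, Krt8, Scgb1c1, Sept9 and Dpep2. The peak upstream of Trappc9 (chr15:72897784-72899991) scored 192.5 and 169.4 in ATPneg libraries. That near Neat1, a nuclear long noncoding RNA, lay at chr19:5848628-5850782 with scores of 156.6 and 159.0. Only the Scgb1c1 peak was at a promoter, -218 bp from the start.

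A set of 20 genes, most of them pre-B cell genes and B lineage regulators, with Smc3, Ctcf and the glycolytic Pgk1 among them, was followed one by one. Of these 20 genes, 16 were nearest to a gained peak, with 44 peaks in all. Of the 44 peaks, 28 were at CTCF, 10 at promoters, 16 in RAD21 ATPneg 1 and 38 in RAD21 ATPneg 2. Over all genes, 53.3% were nearest to a gained peak. Over all gained peaks, 51.9% were at CTCF, and 20.005% of those with a region were at promoters. RAD21 ATPneg 1 and 2 overlapped 24.4% and 85.2% of all gained peaks. Myc, a driver of proliferation, had a gained peak at -1450 bp from its start, at chr15:61814519-61815469 with scores of 72.8 and 72.0 in ATPneg libraries, at CTCF, and a weaker one 1695 bp past the start, at chr15:61818274-61819619, with 19.6 and 12.02, not at CTCF. Rag1, which encodes the recombinase that cuts Ig genes, had one at -3357 bp (chr2:101492932-101493563) with 51.8 and 59.0, and Rag2 had 3, all at CTCF. Smc3 had 3, all at CTCF; the highest, at -21067 bp (chr19:53653065-53653899), scored 106.0 and 95.5. By definition, none of these gained peaks overlapped a WT peak.

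The remaining genes of this group showed both kinds of site. Klf2, a factor of quiescence and migration, was the nearest gene of 4 gained peaks. The 1 at CTCF, with scores of 71.02 and 79.3, was 46671 bp past its start, and another was 31014 bp past it. The 2 others overlapped annotated regions at its promoter and were not at CTCF. They scored 14.5 and 12.3 (chr8:74842557-74843560) and 7.3 and 6.8 (chr8:74846219-74847133) in ATPneg libraries. These distances and promoter calls are those of the annotated regions, not of the peaks. Bcl11a had 7 gained peaks, Foxo1 and Ebf1 5 each, Erg 4, Brwd1 3, Cxcr4 2, and Igll1, Ikzf1, Irf4, Ets1 and Pgk1 1 each. The promoter peaks of Irf4 (7.3 and 7.2), Ets1 (9.4 and 9.5) and Foxo1 (6.7 and 8.0) were weak and not at CTCF. Vpreb1, Pax5, Ikzf3 and Ctcf had no peak of any class assigned to them.

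Lost peaks near these genes lay far from the starts. There were 23 near 9 genes, none at CTCF or at a promoter, with a median width of 1545 bp; 22 of the 23 were in RAD21 WT and 22 in WAPL WT. Among all lost peaks, 0.267% were at CTCF, 0.609% at promoters and 82.6% in WAPL WT, and 25.2% of all genes were nearest to one. At Ebf1 a lost peak of 983 bp (chr11:44397517-44398499) scored 8.1 and 12.1 in WT libraries, within 1 kb of a gained peak of 667 bp (chr11:44399470-44400136) that scored 74.2 and 45.1 in ATPneg libraries. Near Ikzf1, which encodes Ikaros, a lost peak of 3142 bp lay at -70729 bp with 12.6 and 18.5 in WT libraries. The highest-ranked lost peaks were nearest to Zfp825, Mpp7, Shisa6, Mup7, Igha, Mcm5, Shroom2, Aadac, Tcp10c and Spon1, all 10 of them in the RAD21, WAPL and NIPBL WT consensus lists. The Zfp825 peak (chr13:74665916-74668514) scored 81.9 and 109.1 in WT libraries and held 125.7 and 145.6 CPM per kb there, against 28.3 in the WT input.

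Kept peaks were narrow at named genes too. The 10 highest-ranked were nearest to Ndst4, Marcks, Tmem59l, Gabra3, Cyr61, Dnajc21, Tusc1, Slc15a5, Ccbe1 and Pak1ip1, were 118 to 199 bp wide, and all 10 lay in the H3K27ac, WAPL and NIPBL WT lists. The Marcks peak (chr10:36983498-36983696) scored 13.1 and 15.8 in ATPneg libraries and 125.6 and 47.3 in WT libraries, where its density was 638.0 CPM per kb in WT 1 and 98.1 in WT 2, against 34.4 in the WT input. At Foxo1 and Cxcr4 the kept peaks were 112 and 142 bp wide, at 121.8 and 76.5 CPM per kb in the WT input. Pgk1, a glycolytic enzyme gene with processed copies elsewhere in the genome that could share reads, had a kept peak of 523 bp at its promoter (chrX:103382087-103382609), with scores of 33.0 and 59.4 in ATPneg libraries and 7.4 and 5.7 in WT libraries.

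On chromosome 6 between 67 and 71 Mb, a window that holds Igk and other genes, the 2 conditions occupied mostly different sites, as they did over all peaks. ATPneg libraries had 58 and 57 peaks there, 35 and 31 of them at CTCF, against 73 and 129 peaks with 2 at CTCF in each of the WT libraries. The peaks covered 29.7 and 25.7 kb in ATPneg libraries and 80.5 and 111.9 kb in WT libraries. Of 39 gained peaks, 29 were at CTCF, 12 in RAD21 ATPneg 1 and 34 in RAD21 ATPneg 2. Of 59 lost peaks none was at CTCF and 48 were in RAD21 WT, and 4 peaks were kept. Among all gained peaks, 51.9% were at CTCF, 24.4% in RAD21 ATPneg 1 and 85.2% in RAD21 ATPneg 2. Among all lost peaks, 0.267% were at CTCF and 81.9% in RAD21 WT. Between the V and J segments, gained peaks lay at chr6:70663980-70664747, -7761 bp from IgkJ1, with scores of 50.8 and 54.8 in ATPneg libraries, and at chr6:70659134-70660155, next to Igkv3-1, with 38.7 and 42.0. Both were at CTCF and in both RAD21 ATPneg lists. The highest gained peak of the window at CTCF (chr6:70761541-70763005), beyond the constant region near Rpia, scored 95.4 and 104.99. Among lost peaks, that near Igkv3-12 (chr6:70479338-70480786, 1449 bp) scored 13.6 and 21.9 in WT libraries.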

How the data were processed

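SMC3 ChIP-seq peaks of 2 ATPneg and 2 WT libraries were compared, with 22 further lists of the same series. Coordinates are on mm9, and BWA, Picard, MACS2, bedtools, featureCounts and edgeR are named, per the submitters' processing notes, without versions; the roles and the peak threshold are not given in the sources used here. The deposited peak lists give 1 score per peak, made by the authors, whose lowest value in every list was just above 5. The deposited counts are the authors' reads per merged region of a target in WT and KO libraries and 1 input column per genotype, here scaled to CPM of the library's total in those regions and to length. The deposited normalized signal served only for its gene annotation. ATPneg libraries have peak lists without counts, so their depth and any normalization between conditions are unknown, and no count test was made. Left unused were 2 columns that hold inputs of no sample in the series.

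Peaks overlapped when they shared at least 1 bp. The gene of a peak is the one with the nearest start, within 200 kb, among all genes listed for the overlapping region in the authors' region tables. The tables were taken in the order SMC3, CTCF, RAD21, WAPL, NIPBL, H3K27ac, H3K4me1. Distances and the promoter or gene body call are those of the region, not of the peak. A gene body call can refer to a gene other than the one named. Shares carry exact binomial 95% intervals, which cover counting error only; per-library values were compared by exact two-sided permutation tests. With nothing in the labels on separate animals, p-values measure only the spread between libraries. The replicate numbers are not said to pair samples. The code was tested on simulated peaks with Python 3.11.15, numpy 2.4.6, pandas 2.3.3 and scipy 1.17.1.

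Named peaks are, per class, the first 10 with distinct genes by the lower of both within-list score percentiles (leaving aside olfactory, vomeronasal, microRNA, Riken and predicted genes), up to 2 genes of each gene list, all peaks of 20 chosen genes, and the Igk window; the text prints a part. The members, gene lists and rules were chosen with earlier results of these data known. Alternatives were a 50% overlap, a stricter score, equal list lengths, the union of replicates, replicate 2 as anchor, each SMC3 library left out and other CTCF lists; the H3K4me1-labelled list in place of H3K27ac was added after the data were seen.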

Additional observations from a re-analysis of the deposited data

How the results depend on the processing

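Among the differences recomputed under the alternatives, 4 turned sign. Kept, lost and gained are percent of their consensus; values at other targets are the share of gained minus the share of lost peaks in percentage points. At a stricter score, kept became 10.8%, lost 85.1% and gained 89.8%, and the differences were 70.9 at CTCF, -18.5 at NIPBL and -93.5 at WAPL, while the number of peaks per library turned to 2682 more in ATPneg; the alternative keeps fewer peaks. With equal list lengths kept was 6.68% and gained 88.8%. With the union of replicates kept was 5.84% and gained 85.2%, and the differences were 35.9 at CTCF, -44.6 at WAPL, -40.9 at RAD21 and, turned in sign, -1.24 at H3K27ac; the cause was not tested. With replicate 2 as anchor kept was 7.53% and lost 88.8%, and the NIPBL difference was -8.78. The CTCF difference was 59.1 with CTCF WT 1 alone and 68.0 with CTCF of KO cells, and the H3K27ac difference was 11.01 with the H3K4me1-labelled lists. CTCF WT 2 alone was not among the alternatives, and it overlapped 58.3% of gained and 23.6% of lost peaks. Leaving out each SMC3 library in turn gave 5.74 to 8.16% kept, 89.5 to 92.3% lost and 85.1 to 92.5% gained, and differences of 41.1 to 51.7 at CTCF, -6.28 to 6.93 at H3K27ac, -8.79 to -2.35 at NIPBL, -79.1 to -52.6 at WAPL and -81.2 to -46.5 at RAD21. The number of peaks per library differed by -23981 to -992 and the median width by -98 to 46 bp. Taking same-numbered libraries as pairs (replicate block), the share at CTCF differed by 37.1 ± 0.762 points (SD of 2 differences), as without the block; that the numbers pair samples is not stated. Of the named peaks, 89 of 118 gained, 46 of 110 lost and 13 of 27 kept stayed in their class at the stricter score. Depth limits are unknown for ATPneg libraries.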

Other observations

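Of the 27393 gained SMC3 peaks, 39 lay in all 8 ATPneg lists (SMC3, RAD21, NIPBL and WAPL, 2 libraries each). Of these 39, 2 overlapped no peak in the 18 other lists compared here (those of KO cells for RAD21, NIPBL, WAPL, H3K27ac and H3K4me1 were not compared), and both were found after the values were seen. The first, at chr6:70672511-70672917, ended 9 bp before an annotated region whose start lies 17 bp from IgkJ2 and 370 bp from IgkJ1, J segments of the Ig kappa locus. It scored 114.2 and 87.4 in the SMC3 ATPneg libraries, 26.4 and 122.7 in RAD21, 50.1 and 63.2 in NIPBL, and 101.0 and 122.3 in WAPL, where it was the highest-scoring peak of both lists. None of the CTCF lists had a peak there.

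The second, 183 bp wide at chr16:96281080-96281262, lay in the gene body of Brwd1, the gene named in the label of the KO cells. It was 986 bp from an annotated region 23942 bp inside the gene's start. Its scores were 116.1 and 110.6 in SMC3 ATPneg libraries (percentile 99.6 of each list), 9.74 and 61.8 in RAD21, 24.2 and 16.6 in NIPBL, and 23.8 and 33.0 in WAPL. No counts of ATPneg libraries were used at either site, and no cause was tested.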
